A study of Mus musculus with 28 samples.

Results

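H3K27me3, the trimethylated lysine 27 of histone H3, was compared between CD229+CD11c- and CD229-CD11c- microglia sorted from the brains of mice fed cuprizone, a copper chelator that kills oligodendrocytes and causes demyelination. The members are the 3 CD229+CD11c- and the 3 CD229-CD11c- immunoprecipitated libraries, chosen by their labels, 6 of the 28 libraries in the series. The series holds 14 H3K27me3 and 14 input libraries, and 12 of the H3K27me3 libraries have a column of counts over one list of 26326 regions. All of these mice were wild-type adult male C57BL/6 mice, and brains of 2 to 6 mice of a condition were pooled before sorting. CD229+CD11c- cells (n = 3) and CD229-CD11c- cells (n = 3) came from mice given 0.2% cuprizone in the diet for 4 weeks. CD229+CD11c+ cells from the same diet (n = 3) and basal microglia from mice on regular diet (n = 3) entered the same fit and are given for reference. The stated purpose of the series was to examine how this repressive mark relates to the inflammatory activities of microglia.

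H3K27me3 is laid down by Polycomb repressive complex 2 and read by Polycomb repressive complex 1, and in differentiated cells it covers long silent stretches over developmental regulators of other lineages, mostly at CpG-rich promoters. Demethylases of the KDM6 family remove it. Microglia are the resident macrophages of the brain. During demyelination some of them take on a state with genes for lysosomal, lipid-handling and phagocytic proteins, for which CD11c (the integrin encoded by Itgax) is a surface marker. CD229, encoded by Ly9, is a self-binding receptor of the SLAM family, best known on lymphocytes.

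The 6 libraries had 7740002 to 10986803 tags in the regions, and the median region held 151 to 200 tags per library. The regions were called by the authors on 2 other basal libraries, so a region marked in cuprizone cells alone was not counted. No region overlapped Ly9 or Itgax, 0 of 12 SLAM genes and 0 of 40 homeostatic microglia genes were overlapped by one, and the CD229 and CD11c gates could therefore not be checked in these data. Ace, whose product was also stained before the sort, was overlapped by 2 regions that were not called (-0.01 and -0.04, edgeR adjusted p = 0.959 and 0.816). In such bulk libraries, fewer cells carrying the mark and less mark per cell cannot be told apart. Replicate 3 of each cuprizone group, whose title lacks a PE150 tag that replicates 1 and 2 carry, stood apart. On the first principal component of the 12 libraries, which held 30.4% of the variance, CD229+CD11c- replicates 1, 2 and 3 lay at 24.5, 19.2 and 0.7 and CD229-CD11c- replicates at 6.4, 2.1 and -33.6. Counts are therefore also given from the tagged libraries alone. The labels do not say that replicates came from separate sets of mice, so the p-values below cover the spread among these libraries, which may be technical.

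Promoter sequences at regions that differed are shown first because the shares of CpG-rich promoters differed between the sets of regions described below. Each sequence is the 250 bases before the transcription start site (TSS), 5′ to 3′ on the strand of the gene, from RefSeq on build GRCm38.p6, with every CG dinucleotide in capitals. The first 3 belong to regions with more H3K27me3 in CD229+CD11c- cells: Kcnip3 (chr2:127482500-127482749, minus strand, 23 CG), Pde4a (chr9:21165464-21165713, plus strand, 22 CG) and Six6 (chr12:72939632-72939881, plus strand, 17 CG). The last 3 belong to regions with less: Lgals3 (chr14:47373610-47373859, plus strand, 13 CG), Etl4 (chr2:20519263-20519512, plus strand, 2 CG) and Oasl2 (chr5:114896684-114896933, plus strand, 1 CG).
Kcnip3: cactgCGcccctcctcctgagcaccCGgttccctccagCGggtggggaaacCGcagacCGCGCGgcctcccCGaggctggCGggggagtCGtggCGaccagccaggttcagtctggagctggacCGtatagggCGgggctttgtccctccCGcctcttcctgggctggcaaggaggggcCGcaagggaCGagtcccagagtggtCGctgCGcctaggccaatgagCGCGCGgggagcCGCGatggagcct
Pde4a: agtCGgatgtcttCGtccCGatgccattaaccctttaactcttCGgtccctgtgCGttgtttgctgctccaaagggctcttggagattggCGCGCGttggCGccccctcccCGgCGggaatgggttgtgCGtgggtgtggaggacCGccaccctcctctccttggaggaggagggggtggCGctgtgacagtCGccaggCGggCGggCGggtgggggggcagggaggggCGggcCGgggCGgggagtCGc
Six6: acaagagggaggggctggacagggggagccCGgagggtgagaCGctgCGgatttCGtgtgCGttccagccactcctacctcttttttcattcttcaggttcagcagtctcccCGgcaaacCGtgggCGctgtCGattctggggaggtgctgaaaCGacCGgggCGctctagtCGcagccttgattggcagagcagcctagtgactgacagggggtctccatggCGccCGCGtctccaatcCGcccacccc
Lgals3: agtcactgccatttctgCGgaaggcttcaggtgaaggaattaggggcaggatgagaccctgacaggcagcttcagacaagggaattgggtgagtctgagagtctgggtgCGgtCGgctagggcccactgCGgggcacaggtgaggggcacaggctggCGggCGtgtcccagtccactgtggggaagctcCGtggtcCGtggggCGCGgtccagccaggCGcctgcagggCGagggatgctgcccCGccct
Etl4: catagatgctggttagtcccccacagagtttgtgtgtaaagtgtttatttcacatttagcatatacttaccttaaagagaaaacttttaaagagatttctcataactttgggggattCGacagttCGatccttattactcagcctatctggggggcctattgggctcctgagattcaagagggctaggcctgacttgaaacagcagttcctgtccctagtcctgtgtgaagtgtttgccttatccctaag
Oasl2: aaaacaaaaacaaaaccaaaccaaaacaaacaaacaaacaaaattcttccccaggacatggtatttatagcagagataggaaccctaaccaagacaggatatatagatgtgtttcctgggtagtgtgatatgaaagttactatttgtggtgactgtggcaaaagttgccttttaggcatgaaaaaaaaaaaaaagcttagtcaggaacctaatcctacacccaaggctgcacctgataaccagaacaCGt

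Over windows of 250 bases before to 50 after the TSS, CG was counted on one strand, since the motif is its own reverse complement. The 2036 promoters inside regions that were higher in CD229+CD11c- cells held a median of 14 CG, and 64.5% of them held 10 or more. The 97 promoters inside regions that were lower held a median of 5, and 33.0% held 10 or more. The 5481 promoters inside uncalled regions held a median of 7, and 37.6% held 10 or more. All 32851 promoters in the table had a median of 7, and 43.5% held 10 or more. The sequences of Lgals3 above and of Six6 show that single promoters of either set can be rich in CG. In other lower regions the 250 bases at Fam20c held 41 CG, those at Slc2a6 20 and those at Gpnmb 7. The 6 sequences printed are thus examples and do not stand for their sets. These counts describe the sequence and were not tested.

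Relative to the other regions, CD229+CD11c- cells carried more H3K27me3 than CD229-CD11c- cells over a large set of long, strongly marked regions near the start sites of developmental genes. They carried less over a smaller set of regions, shorter and less marked than those, that included genes of the disease-associated state. The counts use no input libraries and no tags outside the regions. The absolute amount of mark per cell was thus not measured, and a difference in immunoprecipitation efficiency between the groups was not tested. Of the 26326 regions, 1777 (6.75%) were higher and 422 (1.6%) lower in CD229+CD11c- cells by edgeR's quasi-likelihood test with Benjamini-Hochberg adjustment at 0.05, together 8.35% of regions, and 5472 had an unadjusted p under 0.05. Differences were mostly small. The higher regions had a median log2 fold change of 0.45 (median SE 0.09), the lower ones of -0.50 (median SE 0.13), and the median over all regions was -0.03. Among the calls, 57 higher and 20 lower regions differed at least 2-fold. Levels are given as CPM, the usual depth-scaled tag count, here over the tags a library had in regions and with TMM factors applied. Median levels at the higher regions were 92.5 CPM in CD229+CD11c- and 66.5 CPM in CD229-CD11c- cells, and at the lower regions 16.1 and 23.1 CPM. In 1743 of the higher and 416 of the lower regions the 3 CD229+CD11c- libraries did not overlap the 3 CD229-CD11c- libraries, against a background of 22.9% of all regions. As the calls were made on these same libraries, this separation largely follows from the calls and is no further support for them.

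**Figure D1:**
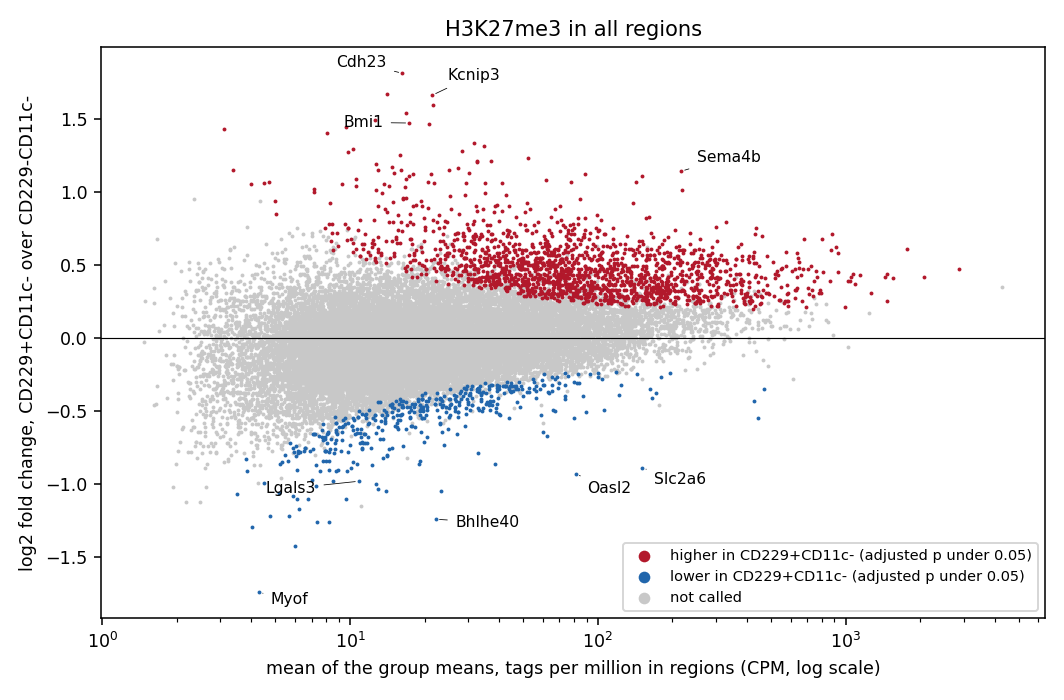
Log2 fold change of H3K27me3 in CD229+CD11c- over CD229-CD11c- cells against mean level in CPM (log scale), 1 point per region. The 1777 higher regions (red) lie at higher levels than the 422 lower regions (blue), with medians of 92.5 and 16.1 CPM in CD229+CD11c- cells, and the median over all regions is 19 CPM.

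The split of the calls depended on scaling. CD229+CD11c- libraries had TMM factors of 0.9436 to 0.949 and CD229-CD11c- libraries of 1.01 to 1.036. Scaled by total tags in regions alone, the median of all regions was -0.14, and 1059 regions were higher and 1697 lower, so that 38.4% of calls were higher, against 80.8% with TMM. With loess offsets along basal enrichment and tag density, which remove any trend with those 2 measures, 506 were higher and 273 lower, 65.0% higher. With the replicate number as a block in the 6 libraries, 3338 regions (12.7%) were higher and 1093 (4.15%) lower, and all 2199 calls kept their sign. The tagged libraries alone gave 2494 higher and 815 lower regions. Lower calls numbered 133 with the 6 compared libraries fitted alone, 235 without CD229+CD11c- replicate 1, 213 without CD229+CD11c- replicate 2 and 276 without CD229-CD11c- replicate 2.

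The higher regions were longer and more strongly marked than the rest. Their median length was 15901 bp, against 7367 bp for the lower and 6055 bp for the uncalled regions, and together they covered 44.4 of 277.0 Mb. Their median log2 enrichment over input in basal microglia, from the authors' deposited table, was 2.01, against 1.41 for the lower regions and 1.47 for the uncalled ones. By decile of that enrichment the share of higher regions went up from 0.76% in the lowest decile to 28.3% in the highest, while the share of lower regions was 1.67% in the lowest and 0.684% in the highest. The median log2 fold change moved with it, -0.08 in the lowest and 0.17 in the highest decile. Length went the same way: 0.986% of regions under 2 kb and 37.4% of regions of 50 kb or more were higher. The median SE was 0.28 in the shortest and 0.07 in the longest class, so the same fold change was called more easily in long regions. The part of precision in these shares was not tested.

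Distance to a TSS separated the calls within the strongly marked regions too. Where the centre lay within 5 kb of a TSS, 1018 of 5054 regions (20.1%) were higher and 74 (1.46%) lower, and these made up 57.3% of all higher and 17.5% of all lower calls. Beyond 100 kb, 1.01% were higher and 2.26% lower. In the highest decile of basal enrichment, 489 of 1035 regions near a TSS (47.2%) were higher, with a median log2 fold change of 0.35, against 256 of 1598 (16%) and a median of 0.03 away from a TSS. Of regions centred on a CpG island, 46 of 158 (29.1%) were higher, against 2.4% of those centred on LINE and 2.86% on LTR elements.

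**Figure D2:**
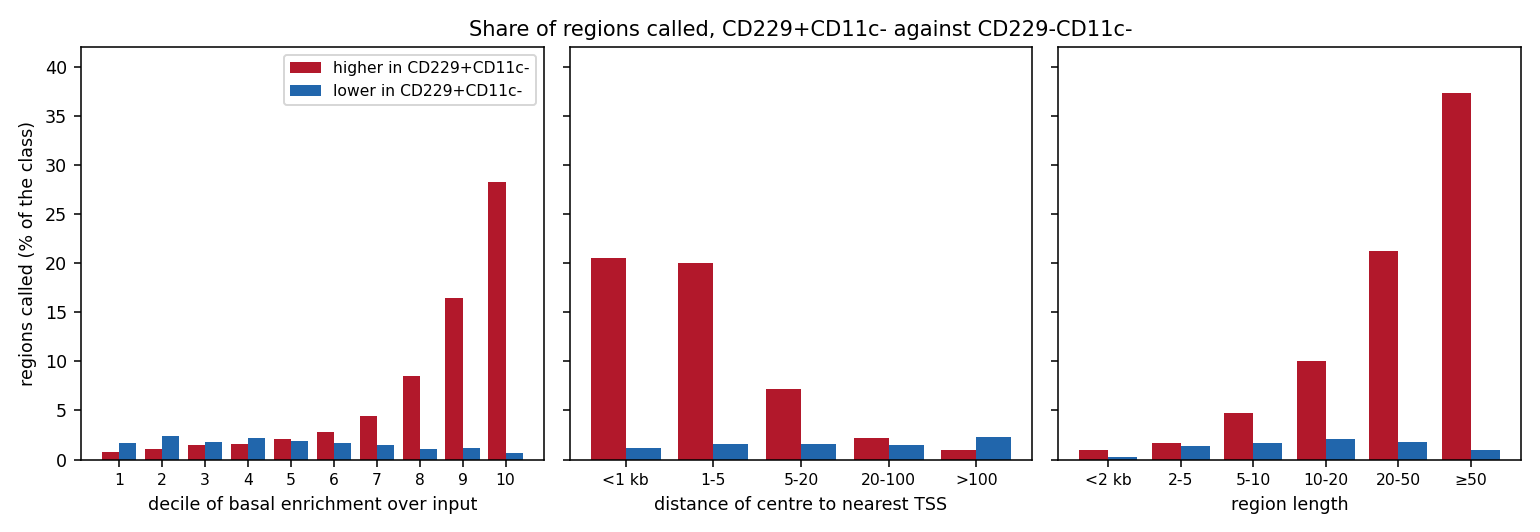
Percentage of regions called higher (red) and lower (blue) in CD229+CD11c- cells by decile of basal enrichment over input, distance of the region's centre to the nearest TSS, and region length. Higher calls reach 28.3% in decile 10 and 37.4% at 50 kb or more, and lower calls reach at most 2.39% in any class.

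The share of a library's tags in the top decile of basal enrichment needs no fit. It was 20.0, 20.0 and 20.2% in the 3 CD229+CD11c- libraries, against 17.0, 16.5 and 16.9% in the 3 CD229-CD11c- libraries. All CD229+CD11c- libraries lay above all CD229-CD11c- libraries, a difference of 3.27 percentage points. Regions near a TSS held 26.0 ± 0.0528% and 23.6 ± 0.181% of tags (SD, n = 3 each), and regions of 50 kb or more held 20.8 ± 0.359% and 19.0 ± 0.5%. A two-sided exact permutation test gave p = 0.1 for each, the smallest p that 3 against 3 libraries allow, and 0.1 after adjustment over the 4 shares computed.

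Kcnip3, which encodes a calcium-binding protein of Kv4 channels that also acts as a transcriptional repressor, had the strongest gain at a promoter by the naming rule. Its 3.63 kb region (chr2:127480948-127484578, mm10, over the TSS) had 32.7, 32.0 and 33.1 CPM in CD229+CD11c- libraries, against 9.17, 10.5 and 11.3 CPM in CD229-CD11c- libraries. All 3 CD229+CD11c- libraries stood far above every CD229-CD11c- library. The log2 fold change was 1.66 ± 0.15 (SE; edgeR quasi-likelihood test, adjusted p = 2.56e-06). The region over Nlgn2, a postsynaptic adhesion protein of inhibitory synapses, had 30.9, 27.9 and 32.8 CPM in CD229+CD11c- libraries and 10.0, 8.83 and 14.1 CPM in CD229-CD11c- libraries (log2 fold change 1.46 ± 0.17, edgeR adjusted p = 1.72e-05). The naming rule for the largest changes asked for groups that do not overlap, so the separation in the regions it named was set in advance.

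At Sema4b, a transmembrane semaphorin, a region over the TSS and its upstream neighbour rose. The 22.1 kb region (chr7:80169322-80191413) reached 278, 281 and 335 CPM in CD229+CD11c- libraries, against 113, 119 and 172 CPM in CD229-CD11c- libraries. Replicate 3 was the highest library of each group, and the groups did not overlap (log2 fold change 1.14 ± 0.13, edgeR adjusted p = 1.87e-05). The neighbouring 7.33 kb region gave 1.23 ± 0.11. Among the other regions with the largest gains were those nearest Echdc3 (1.59), Spag6 (1.28), Tagap (1.21), Gstp3 (1.2), Neurl1a (1.16) and Car11 (1.15), and over start sites those of Adcy6 (an adenylyl cyclase), Cabp2 (a calcium-binding protein) and Ankrd63, each at 1.07 on the log2 scale. Cdh23, which encodes a cadherin, was chosen after its values were seen: its intronic region had the largest fold change of all calls, 25.2, 23.8 and 26.9 CPM in CD229+CD11c- libraries and 8.65, 7.07 and 5.99 CPM in CD229-CD11c- libraries, 1.81 ± 0.19 on the log2 scale (edgeR adjusted p = 5.98e-06).

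Transcription factors of development held the largest shares of gains among the gene lists. All of these lists were written with earlier results of these data known, so their counts are no independent evidence. Of 55 regions within 10 kb of the TSS of a homeobox or Pax gene outside the Hox clusters, 43 rose and 0 fell, with a median log2 fold change of 0.43. Of 59 regions at other developmental factors, 39 rose and 0 fell, with a median of 0.42. The background is 6.75% higher regions and a median of -0.03. Among all regions centred within 5 kb of a TSS it is 20.1% and 0.13. With total-count scaling the medians were 0.32 and 0.31 and 34 regions of each list were higher. With loess offsets they were 0.14 and 0.18, and 6 and 9 regions were higher, since those offsets set a region against others of like enrichment and tag density. The tagged libraries alone gave 49 and 48 higher regions.

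Cux2, a homeobox factor of upper-layer cortical neurons, had the largest rise of the homeobox list, with 45.9, 46.9 and 43.8 CPM in CD229+CD11c- libraries, against 19.9, 18.3 and 20.5 CPM in CD229-CD11c- libraries (1.21 ± 0.12, edgeR adjusted p = 4.44e-06). Next came Phox2a (0.77), a factor of noradrenergic neurons, and Six6 (0.64 ± 0.07), a factor of eye and pituitary development. Six6 had 175, 197 and 185 CPM in CD229+CD11c- libraries and 123, 118 and 118 CPM in CD229-CD11c- libraries, with no overlap. Among the other factors Sox1 (0.74) and Neurog2 (0.72), both neural, Gata2 (0.64), a blood stem cell and mast cell factor, and Foxc1 (0.55) and Gata4 (0.49), mesodermal factors, rose. Homeobox members that did not pass the test lay between -0.15 for Irx4 and 0.62 for Hmx1 (edgeR adjusted p = 0.606 and 0.0659). With the replicate block 51 of the 55 homeobox and Pax regions rose, Hmx1 among them (adjusted p = 2.41e-13).

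The 4 Hox clusters, whose genes pattern the body axis, each had a very long region that rose. The 410.3 kb region over the Hoxc genes (chr15:102741093-103151419) had 3331, 3351 and 3310 CPM in CD229+CD11c- libraries, against 2479, 2370 and 2381 CPM in CD229-CD11c- libraries. No CD229-CD11c- library came near the CD229+CD11c- range, and the log2 fold change was 0.47 ± 0.06 (edgeR adjusted p = 3.39e-05). It was 0.61 ± 0.09 over Hoxa, 0.42 ± 0.07 over Hoxb and 0.44 ± 0.07 over Hoxd. With loess offsets none of the 4 was called, and Hoxa was at 0.06. Hoxa had 1999, 2067 and 2344 CPM in CD229+CD11c- libraries and 1342, 1282 and 1588 CPM in CD229-CD11c- libraries, replicate 3 again being the highest of each group.

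**Figure D3:**
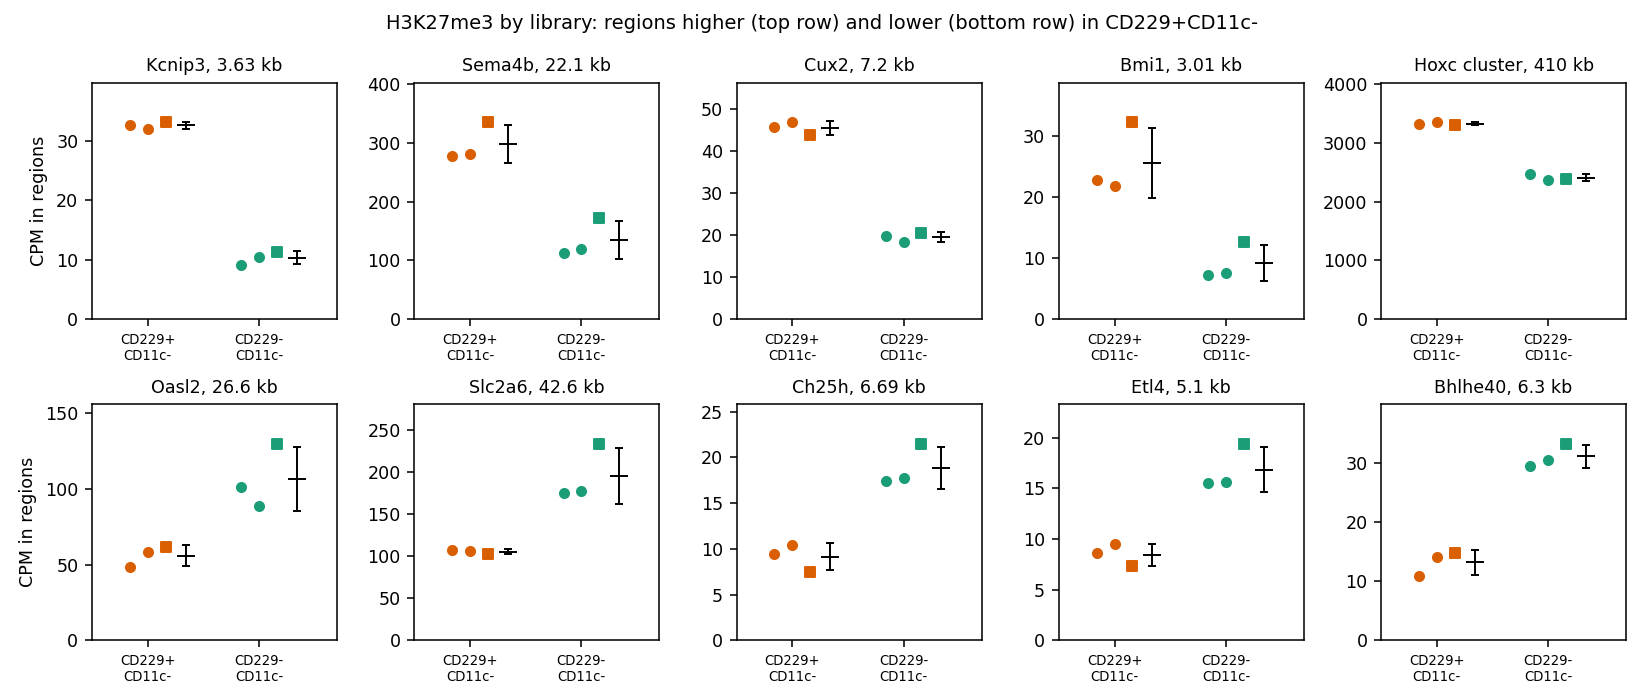
H3K27me3 in CPM for each of the 3 CD229+CD11c- (orange) and 3 CD229-CD11c- (green) libraries in 5 regions that were higher and 5 that were lower in CD229+CD11c- cells, with mean ± SD (n = 3). Circles are replicates 1 and 2, squares replicate 3, which lacks the PE150 tag, and the groups do not overlap in any panel.

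Secreted growth factors and morphogens moved less uniformly. Of 57 regions at 48 of these genes, 20 rose and 1 fell, with a median of 0.25 (33 and 2 with the replicate block). Over all regions 6.75% were higher and 1.6% lower, and within 5 kb of a TSS 20.1% and 1.46%. With loess offsets 4 rose and 1 fell. Gdnf, a survival factor for neurons, had 155, 146 and 132 CPM in CD229+CD11c- libraries, against 98.3, 88.8 and 71.1 CPM in CD229-CD11c- libraries (0.75 ± 0.10, edgeR adjusted p = 4.58e-05). The lowest CD229+CD11c- library stood well above the highest CD229-CD11c- library. Wnt ligands Wnt5a (0.72), Wnt1 (0.59) and Wnt10a (0.52), the BMP-family ligand Gdf7 (0.58) and the activin subunit Inhbb (0.68) rose as well. The single region of this list that fell lay upstream of Igf1, which is also a gene of the disease-associated state and is described with that list.

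Some regions at or near genes of the Polycomb system were more marked. Of the 32 genes listed, 6 were overlapped by a region. Of 11 regions at Polycomb subunits and H3K27 demethylases, 4 rose and 0 fell, with a median of 0.25. Over all regions 6.75% were higher and 1.6% lower, and within 5 kb of a TSS 20.1% and 1.46%. With loess offsets 2 of the 11 rose and 0 fell, with a median of 0.18. Bmi1, the PCGF subunit of canonical Polycomb repressive complex 1, had 22.8, 21.9 and 32.3 CPM in CD229+CD11c- libraries, against 7.29, 7.57 and 12.6 CPM in CD229-CD11c- libraries. The groups did not overlap, and the log2 fold change was 1.47 ± 0.21 (edgeR adjusted p = 8.61e-05). The region nearest Kdm6b, which encodes the demethylase JMJD3, was centred at -6068 bp from the TSS, upstream of it. That region had 17.7, 20.4 and 21.8 CPM in CD229+CD11c- libraries and 11.4, 9.46 and 12.4 CPM in CD229-CD11c- libraries (0.84 ± 0.18, edgeR adjusted p = 0.00352). Cbx8, a reader of the mark, was at 0.63 ± 0.11 and lost its call with loess offsets. One of the regions at Pcgf5 was at 0.29 (edgeR adjusted p = 0.0499) and was not called from the tagged libraries (adjusted p = 0.194). The region nearest Ezh2, the methyltransferase, centred at -6928 bp from the TSS, gave -0.05 ± 0.29 (edgeR adjusted p = 0.947).

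Genes of cAMP signalling and the immediate-early response went both ways. Of 26 regions, 8 rose and 3 fell (13 and 4 with the replicate block, median 0.17). Over all regions 6.75% were higher and 1.6% lower, and within 5 kb of a TSS 20.1% and 1.46%. With loess offsets 3 rose and 3 fell, with a median of 0.03. Pde4a, a phosphodiesterase that degrades cAMP, had 21.5, 21.9 and 30.4 CPM at its promoter in CD229+CD11c- libraries, against 8.86, 9.59 and 15.2 CPM in CD229-CD11c- libraries. Its groups did not overlap (1.12 ± 0.19, edgeR adjusted p = 0.000493). The nuclear receptor genes Nr4a1 (1.11 ± 0.23) and Nr4a2 (0.55 ± 0.10) and both Fosb regions (0.74 and 0.60) rose, and so did the adenylyl cyclase gene Adcy8 (0.77 ± 0.12). Nr4a3, the remaining member of that receptor family, fell (-0.84 ± 0.23, edgeR adjusted p = 0.0262). The other regions that fell lay near Ptger4 (-0.66 ± 0.13) and Ptger2 (-0.69 ± 0.18), whose products are prostaglandin E2 receptors that raise cAMP. Ptger4 had 21.6, 21.3 and 19.8 CPM in CD229+CD11c- libraries and 29.7, 31.3 and 37.6 CPM in CD229-CD11c- libraries, with no overlap.

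Guidance and actin genes also split. Of 26 regions at semaphorins, plexins and actin regulators, 9 rose and 2 fell (median 0.16). Over all regions 6.75% were higher and 1.6% lower, and within 5 kb of a TSS 20.1% and 1.46%. With loess offsets 5 of the 26 rose and 3 fell, with a median of 0.15. Beside Sema4b, Mmp15, a membrane-bound matrix metalloprotease (1.13 ± 0.11), Ptprf, a receptor phosphatase (1.06 ± 0.11), and Ajuba, a scaffold of cell junctions (0.98 ± 0.13), rose most. These 3 are neither semaphorins nor plexins, and as the list was chosen with earlier results of these data known, its count is no independent evidence. The 2 that fell were Rai14, an actin-bundling ankyrin-repeat protein (-0.71 ± 0.16), and Inf2, a formin (-0.68 ± 0.13). Inf2 had 13.8, 15.8 and 17.4 CPM in CD229+CD11c- libraries and 23.4, 26.6 and 25.1 CPM in CD229-CD11c- libraries, without overlap. Myof, the membrane-repair protein myoferlin, was the lowest of all calls: its 2.47 kb intronic region had 2.12, 1.99 and 1.80 CPM in CD229+CD11c- libraries and 5.73, 6.94 and 7.15 CPM in CD229-CD11c- libraries (-1.74 ± 0.24, edgeR adjusted p = 6.84e-05). Of the 8 regions nearest Myof 1 other was called, an intergenic one that rose (0.31 ± 0.08), and the region at its TSS, with 61.1 CPM in CD229+CD11c- and 58.3 CPM in CD229-CD11c- cells, was not called (0.07 ± 0.11, edgeR adjusted p = 0.799).

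Of the gene lists, that of the disease-associated microglia state had the largest share of regions with less mark in CD229+CD11c- cells. It too was written with earlier results of these data known, so its count is no independent evidence. Of 15 regions at 12 of the 44 listed genes, 7 fell and 0 rose, with a median of -0.75, against 1.6% lower regions over all. The count was 7 with loess offsets (median -0.79), 8 with total-count scaling and 6 from the tagged libraries. Levels here were low. Lgals3, encoding galectin-3, had 5.98, 7.01 and 9.09 CPM in CD229+CD11c- libraries, against 12.6, 14.3 and 16.3 CPM in CD229-CD11c- libraries. Each CD229+CD11c- library was below every CD229-CD11c- library (-0.98 ± 0.18, edgeR adjusted p = 0.000818). Ch25h, which makes 25-hydroxycholesterol, had 9.45, 10.4 and 7.52 CPM in CD229+CD11c- libraries and 17.4, 17.7 and 21.5 CPM in CD229-CD11c- libraries (-1.05 ± 0.17, edgeR adjusted p = 0.000247). Etl4 had 8.58, 9.47 and 7.29 CPM in CD229+CD11c- libraries and 15.5, 15.6 and 19.4 CPM in CD229-CD11c- libraries (-1.0 ± 0.16, edgeR adjusted p = 0.000223). In neither did the groups overlap.

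The other members that fell were Fam20c, a kinase of secreted proteins (-0.75), Igf1, a growth factor (-1.10), Fabp5, a fatty acid-binding protein (-0.77), and Gpnmb, a transmembrane glycoprotein of phagocytes (-0.54 at its TSS region). Of these, Fabp5 was not called from the tagged libraries (edgeR adjusted p = 0.115), Igf1 not without CD229-CD11c- replicate 3 and Gpnmb not without CD229+CD11c- replicate 1. Apoe, the lipid carrier, averaged 6.91 CPM in CD229+CD11c- and 15.3 CPM in CD229-CD11c- cells, a log2 fold change of -1.15 ± 0.40 that missed the threshold (edgeR adjusted p = 0.097) but passed with the replicate block (adjusted p = 3.67e-07). Axl, a receptor for apoptotic cells, was at -0.80 (adjusted p = 0.0966, and 0.00812 with the block). The regions at Mamdc2 (0.05) and Dkk2 (0.15) were not called.

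Bhlhe40, a transcriptional repressor of macrophages, was covered by a 6.3 kb region that the authors added to their list (chr6:108660629-108666925). It had 10.8, 14 and 14.7 CPM in CD229+CD11c- libraries, against 29.5, 30.5 and 33.2 CPM in CD229-CD11c- libraries. The lower group stayed at or below 14.7 CPM and the higher at or above 29.5 CPM (-1.24 ± 0.16, edgeR adjusted p = 3.21e-05). It lies inside a 109 kb region at -0.35 ± 0.09, so its tags were counted in both. The next region upstream, also 109 kb long (chr6:108500921-108610375), was at -0.55 ± 0.08 and was among the 3 longest that fell, with 1 of 114 kb over Nedd9, a focal-adhesion scaffold (-0.43 ± 0.10). The call at Nedd9 was lost without CD229+CD11c- replicate 1, and the call in the region around Bhlhe40 without CD229+CD11c- replicate 1 or 2.

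Interferon genes did not move as 1 group. Of 7 regions within 10 kb of a listed TSS, 2 fell and 1 rose, with a median of -0.33, against 1.6% lower and 6.75% higher regions over all. Irf7, the master regulator of type I interferon, had 6.75, 6.31 and 5.61 CPM in CD229+CD11c- libraries and 11.7, 11.6 and 11.6 CPM in CD229-CD11c- libraries (-0.90 ± 0.20, edgeR adjusted p = 0.00587). The groups were well apart, whereas the fall at Zbp1, a nucleic acid sensor (-0.99 ± 0.28, edgeR adjusted p = 0.0296), was lost with loess offsets and without any of the CD229+CD11c- replicates. Gbp7, an interferon-induced GTPase, went up, with 21.7, 19.7 and 27.3 CPM in CD229+CD11c- libraries and 8.65, 9.59 and 13.8 CPM in CD229-CD11c- libraries (1.09 ± 0.18, edgeR adjusted p = 0.000446).

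A longer region over Oasl2, an interferon-induced relative of the oligoadenylate synthetases whose region centre lies 11460 bp from the TSS and thus outside that list, was among the strongest losses by the naming rule. It had 48.2, 58.2 and 61.6 CPM in CD229+CD11c- libraries, against 101, 88.6 and 129.9 CPM in CD229-CD11c- libraries, with no overlap (-0.93 ± 0.13, edgeR adjusted p = 0.000117). Slc2a6, a member of the glucose transporter family, lay in a 42.6 kb region with 108, 106 and 103 CPM in CD229+CD11c- libraries and 175, 178 and 234 CPM in CD229-CD11c- libraries (-0.89 ± 0.10, edgeR adjusted p = 1.88e-05). CD229-CD11c- replicate 3 was the highest library in each of these regions. Other losses by the rule were at Egln3, an oxygen-sensing prolyl hydroxylase (-0.67), Xylt1, which starts glycosaminoglycan chains (-0.64), St3gal1, a sialyltransferase (-0.64), and Baz2a, a chromatin remodelling subunit (-0.84). Of the 11 regions nearest Egln3, 1 was called lower and 1 higher.

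Cytokine, chemokine and NF-kappa-B genes gave no call in 10 regions (median -0.10). By edgeR 0 passed and by the replicate block 1 did, at Il27 (-0.55 ± 0.23, adjusted p = 0.157, and 0.0379 with the block). Antigen presentation gave 1 call in 6 regions, at Ciita, the transactivator of class II genes. That region had 37.9, 37.9 and 41.3 CPM in CD229+CD11c- libraries and 22.3, 20.7 and 29.7 CPM in CD229-CD11c- libraries, without overlap (0.68 ± 0.15, edgeR adjusted p = 0.00467). Another region near a TSS of Ciita was not called (0.20 ± 0.16, edgeR adjusted p = 0.521). The median of that list was 0.08, and -0.03 with total-count scaling. Lipid handling genes gave 2 lower of 10 regions, at Ch25h and Fabp5, and 1 higher one, with a median of -0.04. Over all regions 6.75% were higher and 1.6% lower. Of the cyclin-dependent kinase inhibitors, Cdkn1c rose (0.55 ± 0.08), and Cdkn2a, with 204, 232 and 286 CPM in CD229+CD11c- libraries and 173, 162 and 237 CPM in CD229-CD11c- libraries, overlapped between groups (0.34 ± 0.15, edgeR adjusted p = 0.226, and 1.84e-07 with the block).

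**Figure D4:**
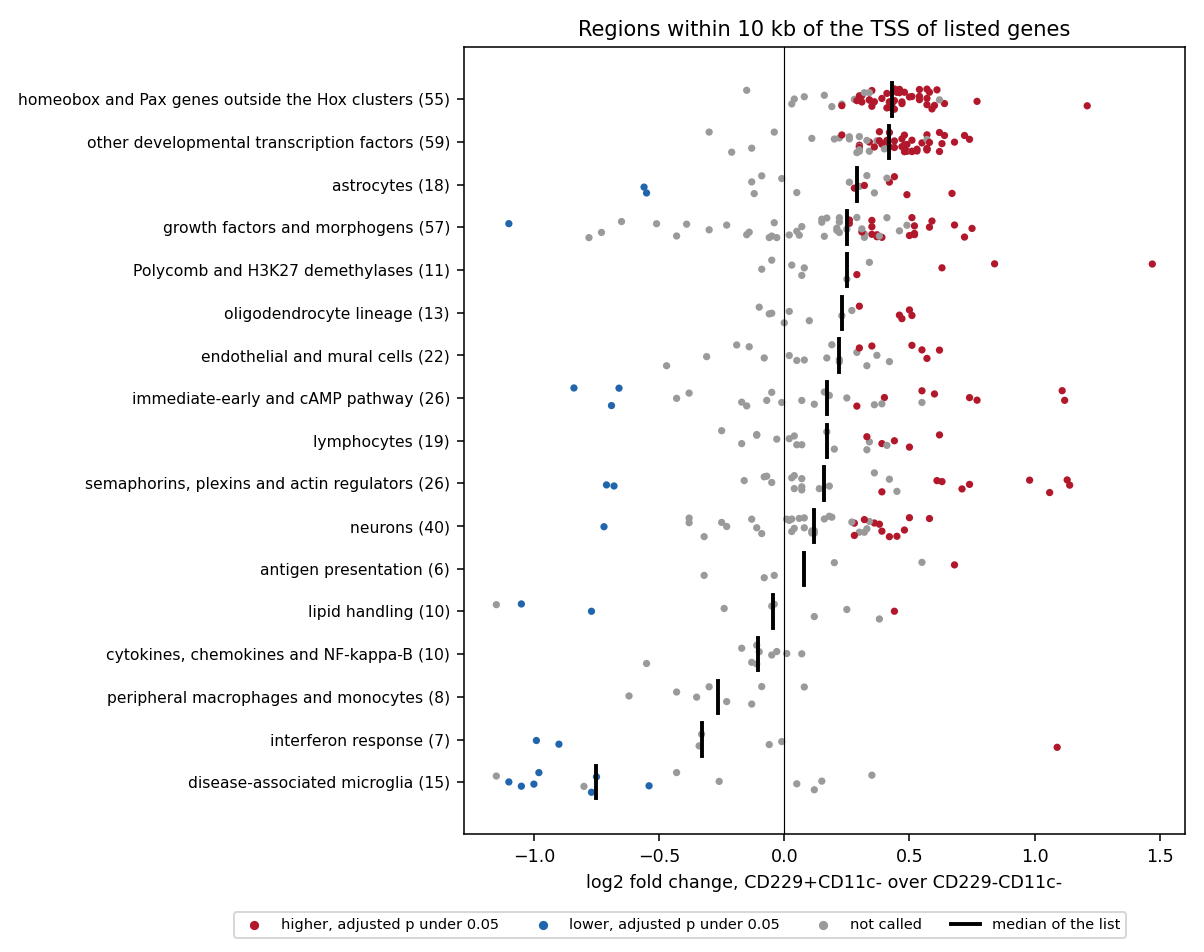
Log2 fold change, CD229+CD11c- over CD229-CD11c-, of every region within 10 kb of the TSS of a listed gene, 1 point per region, with the number of regions in brackets and the list median as a black bar. The developmental lists lie to the right with medians of 0.43 and 0.42, and the disease-associated microglia list lies to the left with a median of -0.75.

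At marker genes of other cell types, more regions rose than fell in every list but that of peripheral macrophages. This did not hold with loess offsets. Over all regions 6.75% were higher and 1.6% lower. Listed regions lay within 10 kb of a TSS, and nearness to a TSS alone went with more gains. Of all regions centred within 5 kb of one, 20.1% were higher and 1.46% lower, with a median of 0.13. The lists were not tested against either share. At lymphocyte genes 5 of 19 regions rose and 0 fell (8 with the replicate block; median 0.17), led by the T cell factors Lef1 (0.62) and Tcf7 (0.50). At oligodendrocyte-lineage genes 5 of 13 rose and 0 fell (median 0.23), among them Pdgfra (0.51), Olig2 (0.50) and Nkx6-2 (0.47), while Mobp (0.02) and Cldn11 (-0.06), genes of mature myelin-forming cells, were not called. Neuronal genes gave 11 higher and 1 lower of 40 (18 and 1 with the block; median 0.12), such as Gad2 (0.45), which makes GABA, and the lower one at Tph2 (-0.72), which makes serotonin. Astrocyte genes gave 6 higher and 2 lower of 18 (median 0.29), with the growth factor receptor Fgfr3 the highest (0.67) and the lower ones at Aldoc, an aldolase (-0.56), and Aqp4, a water channel (-0.55). Endothelial and mural genes gave 6 higher and 0 lower of 22 (11 with the block, median 0.22). Of these higher regions, those of Foxc1, Foxf2 and Sox18 were also counted with the developmental factors, and that of Lef1 with the lymphocyte genes. The lymphocyte region of Eomes and the oligodendrocyte region of Nkx6-2 were also counted in the developmental lists. The lists are thus not separate sets. At peripheral macrophage genes none of 8 regions was called by edgeR, with a median of -0.27 and the lowest value at Siglec1 (-0.62 ± 0.24, adjusted p = 0.13); the block called 1, at Fn1 (adjusted p = 0.00959), and total-count scaling called 3 lower. With loess offsets the lymphocyte, oligodendrocyte, neuronal, astrocyte and endothelial lists had 1, 0, 1, 0 and 1 higher and 0, 0, 0, 1 and 1 lower regions. A share of other cells in either sort was not tested.

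CD229+CD11c+ cells, which share the CD229+CD11c- libraries as their comparison here, mostly lay between the other cuprizone groups at these regions. Among the 1777 higher regions, 1709 had a CD229+CD11c+ mean between both others, with medians of 77.9 CPM in CD229+CD11c+, 92.5 CPM in CD229+CD11c- and 66.5 CPM in CD229-CD11c- cells, and 65.5 CPM in basal microglia. Set against CD229+CD11c- cells, CD229+CD11c+ cells were lower by edgeR at 191 of them and higher at 0, against 0.771% and 0.0532% of all regions. Among the 422 lower regions, 377 lay between, with medians of 18.5 CPM in CD229+CD11c+, 16.1 CPM in CD229+CD11c-, 23.1 CPM in CD229-CD11c- and 23.1 CPM in basal cells. As the same libraries enter both comparisons, these counts are no separate evidence.

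At the remaining regions the CD229+CD11c+ mean fell outside that range, among them those of Pde4a, Lgals3 and Ciita. Pde4a had 5.27, 4.85 and 6.54 CPM in CD229+CD11c+ libraries, below every CD229-CD11c- library, and 2.13 lower on the log2 scale than CD229+CD11c- cells (edgeR adjusted p = 3.52e-05). Lgals3 had 2.43, 2.71 and 3.54 CPM in CD229+CD11c+ libraries, below all CD229+CD11c- libraries (-1.32, edgeR adjusted p = 0.00723), and 21.6, 18.2 and 20.4 CPM in basal libraries. The order at Lgals3 was thus lowest in CD229+CD11c+, then CD229+CD11c-, then CD229-CD11c-, and highest in basal cells, with no overlap between neighbours. The called Ciita region had 16.1, 20.0 and 21.5 CPM in CD229+CD11c+ libraries, overlapping the CD229-CD11c- libraries. It was 1.02 lower there on the log2 scale than in CD229+CD11c- cells (edgeR adjusted p = 0.00398). Kcnip3 had 16.1, 19.7 and 18.6 CPM in CD229+CD11c+ libraries, between both other cuprizone groups, and 9.80, 6.53 and 6.30 CPM in basal libraries.

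**Figure D5:**
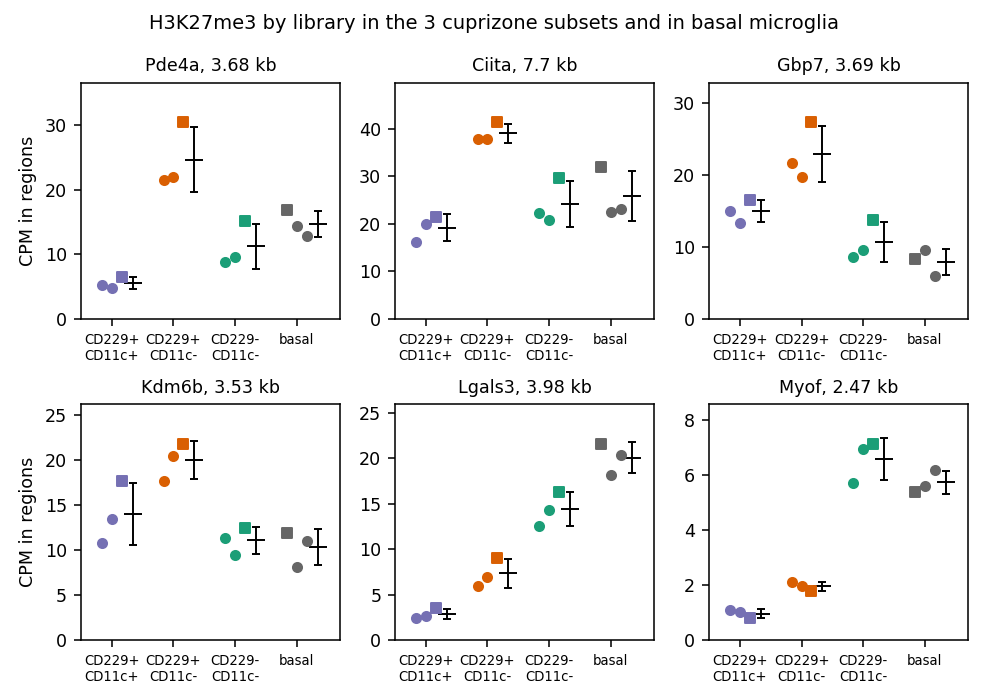
H3K27me3 in CPM for each library of the CD229+CD11c+, CD229+CD11c-, CD229-CD11c- and basal groups in 6 regions, with mean ± SD (n = 3 each); squares are libraries without the PE150 tag. Pde4a is lowest in CD229+CD11c+ and highest in CD229+CD11c- cells, and Lgals3 goes up step by step over the 4 groups.

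In the authors' deposited table for the same contrast, 1434 regions were higher and 145 lower in CD229+CD11c- cells at an adjusted p under 0.05. Of these 1579, 1555 were called here with the same sign, 24 were not, and 644 regions were called here alone. The authors' table gave Kcnip3 a log2 fold change of 1.67. The lower calls differed most, with 145 in that table and 422 here. Among lower regions named in the text, those of Lgals3, Ch25h, Etl4 and Bhlhe40 were called there too. Those of Myof, Igf1, Fabp5, Zbp1, Nfil3, Maff and Nlrc5 were not called there, nor was the one nearest the TSS of Rab7b.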

How the data were processed

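H3K27me3 chromatin immunoprecipitation was sequenced from sorted brain microglia. The members compared and the gene lists were chosen with earlier results of these data known. The authors deposited whole-number tag counts per region, with build mm10 and regions called with HOMER on basal replicates 1 and 2 against 2 inputs (DESeq2, size 1250, L 0, F 2), per the file headers. They also deposited log2 fold changes, p-values and HOMER peak scores, which were used to describe regions. The submitters' processing notes also name STAR 2.7.0f, DESeq2, Bowtie2 2.3.4.1, HOMER and the read trimmer fastp 0.20.0, without saying what each did. The authors' normalised signal per library was deposited too and served to check the direction of their fold changes. Counts hold no input subtraction, and depth outside the regions was not used.

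All 12 libraries in 4 groups were fitted with edgeR 4.0.16 (R 4.3.3; TMM, glmQLFit, glmQLFTest). filterByExpr removed 0 regions. P-values were Benjamini-Hochberg adjusted over 26326 regions, called at 0.05. Each SE was back-calculated as the absolute log2 fold change divided by the square root of the quasi-likelihood F statistic. CPM values use TMM-scaled library sizes of tags in regions. The model was tested on simulated data. Exact permutation tests used scipy 1.17.1. Alternatives were DESeq2 1.42.0, RLE, total-count scaling, loess offsets (the loess function of R 4.3.3, span 0.5), filters, the replicate block, the title tag and leaving out libraries.

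Regions were named by the nearest gene of the authors' annotation. A region joined a list when its centre lay within 10 kb of a listed gene's TSS. The regions named were the 10 with the largest called fold change each way (at or above the median level, groups not overlapping, gene within 100 kb), the 5 each way within 1 kb of a TSS, the 5 with the smallest p and the 3 longest each way, up to 4 per list, and the Hox clusters. Further list members are named with their values, and others are named as chosen after their values were seen. Some called regions are not reported here by name.

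The same replicate number occurs in both groups, and the labels do not say what it marks. Deviations from the group means correlated at 0.283, 0.128 and 0.457 within replicates 1, 2 and 3, each above 0.1. Between different numbers they correlated at -0.373 to 0.248. CD229+CD11c- replicate 2 correlated more with CD229-CD11c- replicate 1 (0.145) than with replicate 2. Replicate 3 is also the library without the PE150 tag, so a pairing by number cannot be told apart from the tag. The main fit holds no block, and values with the block are given beside it.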

Additional observations from a re-analysis of the deposited data

How the results depend on the processing

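Of 2199 called regions (1777 higher, 422 lower in CD229+CD11c- cells), counts within 1.5 times were given by DESeq2 (1952 higher, 406 lower), RLE factors (1871 and 374) and a 50-tag filter (1764 and 447), and no filter gave identical calls. Loess offsets gave 779 in all (506 higher, 273 lower), kept 671 of the calls with their sign and put 93 at the opposite sign, by construction removing the trend with enrichment. Total-count scaling gave 1059 higher and 1697 lower regions. Only the 6 libraries gave 133 lower regions. The replicate block gave 4595 calls in the 9 cuprizone libraries (3155 higher, 1440 lower) and 4431 in the 6 (3338 and 1093), the title tag as a covariate 4370 (3029 and 1341), and the tagged libraries alone 3309 (2494 and 815). Calls of at least 1.5-fold numbered 561 (412 and 149), of at least 2-fold 77 (57 and 20), and at an adjusted p under 0.01 there were 1212 (1108 and 104). Leaving out 1 library gave 1532 to 2576 calls, 1286 to 2048 higher and 213 to 528 lower. Lower calls moved most, to 235 without CD229+CD11c- replicate 1, 213 without replicate 2 and 276 without CD229-CD11c- replicate 2. The difference in the share of tags in the top decile was 3.12 to 3.36 percentage points without 1 library. The 239.6 kb region near 1700025C18Rik was at 0.25 and reversed to -0.09 with loess offsets (adjusted p = 0.765). Of 133 named regions, 39 lost their call with loess offsets, beside the one that reversed, 6 in the tagged libraries and up to 18 without CD229+CD11c- replicate 1, and 5 gained one with the block. The causes were otherwise not tested. The lower regions rest on fewer tags than the higher ones, at a median of 16.1 CPM in CD229+CD11c- cells.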

Other observations

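The regions named here were chosen after their values were seen and belong to no list, so they say nothing of how other genes of their kind moved. Rrm2, a ribonucleotide reductase subunit, had 5.50, 6.08 and 6.85 CPM in CD229+CD11c- libraries, against 12, 12.2 and 15.2 CPM in CD229-CD11c- libraries (log2 fold change -1.10 ± 0.19, edgeR adjusted p = 0.00045). Wee1, a kinase that holds back mitosis, was at -1.26 ± 0.22, Fam83d, a spindle protein, at -0.90 ± 0.21, Mki67, the proliferation marker Ki-67, at -1.01 ± 0.23, and Mybl2, a factor of cell-cycle genes, at -0.85 ± 0.23. In none of these 5 regions did the groups overlap. The call at Mki67 was lost without CD229+CD11c- replicate 1, and that at Mybl2 without replicate 1 of either group.

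All 3 regions nearest Rab7b, a lysosomal GTPase, were lower, at -1.42 for the one nearest its TSS. Nfil3 (-1.22 ± 0.27), Maff (-1.17 ± 0.24), Nlrc5, a transactivator of class I genes (-1.08 ± 0.21), and Anxa2, a membrane-binding annexin (-1.03 ± 0.21), were lower too. All 4 regions nearest Osmr, the oncostatin M receptor, were higher (0.29 to 0.52).

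On chromosome X, 45 of 287 regions (15.7%) were higher and 0 lower, against 6.75% higher and 1.6% lower over all regions, with a median of 0.16, among them Apln, the peptide apelin (0.96 ± 0.18). Apln had 19.6, 22.0 and 25.4 CPM in CD229+CD11c- libraries and 13.3, 10.2 and 10.7 CPM in CD229-CD11c- libraries, without overlap.

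In 14 genes a higher and a lower region shared the nearest TSS, and in 9 of them the called region nearest to it was the higher one. Of 12 regions nearest Spon1, a matrix protein, 1 over its 5′ end rose (0.35 ± 0.09) and 6 fell, one in an intron by -0.48 ± 0.10. The call at its 5′ end was lost with total-count scaling, loess offsets and without CD229+CD11c- replicate 2. Ptger3, another prostaglandin receptor, had 31.0, 33.4 and 28.1 CPM in CD229+CD11c- libraries and 17.6, 14.5 and 20.6 CPM in CD229-CD11c- libraries at its TSS (0.80 ± 0.13). A region 169357 bp away fell (-0.63 ± 0.18, edgeR adjusted p = 0.0348) but was not called from the tagged libraries.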
